A study of Arabidopsis thaliana with 6 samples.

Results

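The set described here holds the root transcripts of Arabidopsis thaliana whose level was much lower when the root was lit, that is, much higher in dark-grown than in light-grown roots. It comprises 81 transcript models of 79 loci, out of 37118 models of 32627 loci on the array. A model was a member where the mean of the dark arrays exceeded the mean of the light arrays by 1.5 or more on the log2 scale, all light values lay below all dark values, and the dark mean was 8 or more. The rule leaves out 10 loci: CYP93D1, CYP712A2, CYP76G1, SWEET3, bHLH39, BHLH100, BHLH101, PIF4, FRO2 and NCED3. The members were therefore chosen by the dark and light values themselves, and every difference between dark and light given for a member is a description without a test.

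RNA came from roots of seedlings grown in vitro for 12 days on half-strength Murashige and Skoog medium. In the dark-grown group, which the labels call the treatment, shoots received white light at 75 µmol/m2/s while roots were kept in darkness. In the light-grown group, the labelled control, shoots and roots were both in that light. Each group had 3 one-colour NimbleGen arrays, 1 per independent in vitro culture, and the labels give no ecotype or genotype. Whole roots were sampled, so fewer cells of a type and less RNA per cell cannot be told apart.

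Values are log2 expression values, with a median of 11.84 in each array. Since probes differ in brightness, genes are set against each other only by their differences and replicate spreads. The labelled tissue was checked only coarsely, because brightness also depends on the probe: 19 of 21 measured root identity genes and 5 of 21 shoot, stomata and cuticle genes had a mean above the array median. In limma, fitted over all models with p-values adjusted by the Benjamini-Hochberg method and a threshold of 0.05, 1 root identity gene was higher and 1 lower in dark-grown roots, and likewise 1 shoot gene was higher (STM, 0.84) and 1 lower (KNAT1, -1.13). The root calls were lost without 4 and 6 of the 6 arrays, and those of STM and KNAT1 without 5 and 3. The part of tissue composition in the differences of the set was not tested.

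Roots grow in soil largely out of light, and illumination of the root is sensed there by phytochromes, cryptochromes and phototropins. Roots take up iron after reducing it at the surface, under basic helix-loop-helix (bHLH) transcription factors, and they exchange sugar and ions with the shoot through the phloem and xylem. Members are described below by these roles as far as the gene table names them. Of the 79 loci, 30 carry a symbol in that table, and 49 have only a locus identifier.

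The differences ran from 1.5 to 3.34 with a median of 1.76, or from 2.83-fold to 10.1-fold. Only 2 models differed by 3 or more, 26 by at least 2 and less than 3, and 53 by less than 2. Dark means ran from 8.03 to 14.2 and light means from 5.79 to 12.7. Light means of 11 models lay under 7, at the dim end, where a fold is approximate. Over all 37118 models, 16.4% had dark values entirely above the light values, and limma called 2.43% higher and 3.22% lower in dark-grown roots. Limma called 70 of the 81 members, a count that the rule shaped and that supports nothing.

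**Figure D1:**
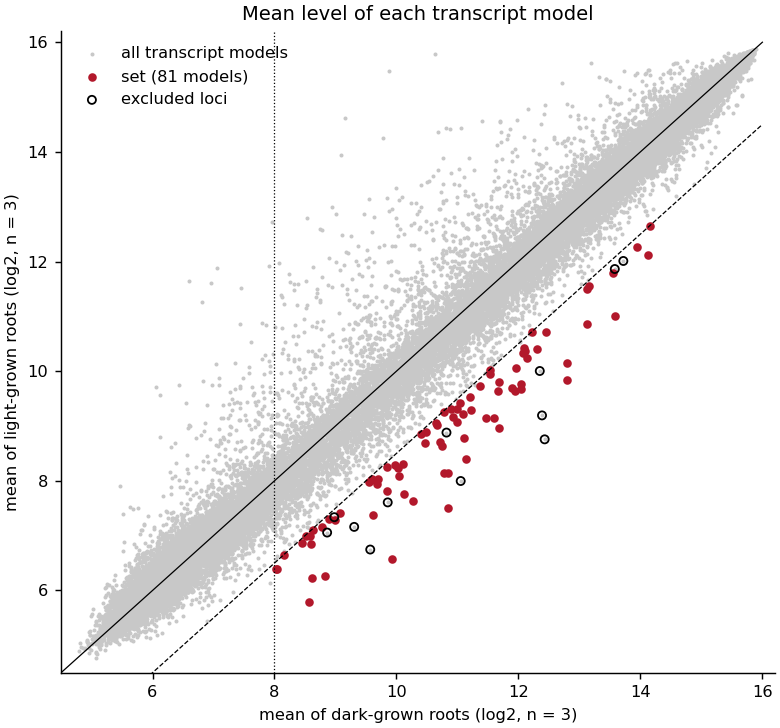
Mean level of every transcript model in dark-grown roots (horizontal axis, log2) against light-grown roots (vertical axis, log2), each over 3 arrays; red points are the 81 models of the set and open circles the excluded loci. The solid line marks equal means, the dashed line a difference of 1.5 and the dotted line the dark mean of 8; the set lies below the dashed line, from dark means of 8.03 to 14.2.

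The largest difference was in AT3G02100, which the gene table leaves unnamed. It measured 10.59, 9.99 and 9.19 in dark-grown roots, against 7.02, 6.30 and 6.42 in light-grown roots, a difference of 3.34. AT1G73120, also unnamed, measured 11.38, 10.62 and 10.52 in dark-grown roots, against 8.14, 7.27 and 7.12 in light-grown roots (difference 3.33). In both, the first dark array was the highest and the lowest dark value stood more than 2 above the highest light value.

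HSD4 had the largest difference among members with a symbol. It encodes a hydroxysteroid dehydrogenase of the steroleosin family, proteins known from oil bodies. Its values were 13.24, 12.85 and 12.32 in dark-grown roots, against 10.00, 9.86 and 9.68 in light-grown roots, or 12.80 ± 0.46 against 9.85 ± 0.16 (mean ± SD, n = 3), which is 7.76-fold. The light arrays lay close together and the dark arrays spread over almost 1 unit. Of the 12 measured genes of a list of oil body and steroleosin genes, none of them in the set, limma called 0 (median difference 0.17). At an unadjusted p under 0.05, 2 were higher and 0 lower. Among them HSD6 differed by 0.73 (SE 0.26, adjusted p = 0.179 in limma). The list entry HSD1 matched several loci and HSD7 was not on the array, so these and other unmatched entries were not counted.

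By symbol, iron acquisition was represented by CYP82C4, bHLH38 and, among the excluded loci, bHLH39, BHLH100, BHLH101 and FRO2. CYP82C4 is a cytochrome P450 that hydroxylates the coumarin fraxetin and is induced by iron deficiency. It measured 11.77, 11.16 and 9.61 in dark-grown roots, against 8.83, 8.34 and 7.25 in light-grown roots, a difference of 2.71. The third array was more than 1 unit below the other two in each group, and the lowest dark value exceeded the highest light value by 0.78. bHLH38, a partner of the iron regulator FIT, measured 10.03, 10.01 and 9.51 in dark-grown roots, against 8.02, 8.74 and 6.66 in light-grown roots (difference 2.04). Its light arrays spread by an SD of 1.06, the widest light spread in the set. bHLH38 lies next to the excluded bHLH39 in the gene order, the one pair of directly adjacent loci that involves a member. The near-identical bHLH genes may be read by each other's probes.

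Of 26 further genes matched by symbol on a list of iron acquisition genes, limma called 3 higher and 2 lower in dark-grown roots. The other 21 did not pass. FIT, BTSL1, BTSL2, IMA1, IMA2 and IMA3 of this list were not found by symbol, so the count leaves out their loci. These loci may still be on the array, or in the set, under a locus identifier alone. One model per gene, the brightest, stood for each gene in such counts, and over all 32627 genes 2.46% were higher and 3.27% lower. The phloem iron transporter gene OPT3 rose by 1.12 (SE 0.08, adjusted p = 0.00211 in limma), and kept its call without any 1 array. The vacuolar metal transporter genes IREG2 and VIT1 rose by 1.01 (SE 0.14) and 0.66 (SE 0.09), calls lost without 3 and 5 of the 6 arrays. The light mean of VIT1 was 6.59, at the dim end, where a fold is approximate. The citrate transporter gene FRD3 and the ferritin gene FER4 fell by 0.46 and 0.73, and lost the call whichever array was left out. The list median was 0.04, against 0.02 for all models. IRT1, the main iron uptake transporter of the root, was, like CYP82C4, lowest in the third array of each group. Its brightest model measured 15.08, 14.83 and 13.83 in dark-grown roots, against 13.46, 13.37 and 12.74 in light-grown roots. It did not pass (difference 1.39, SE 0.37, adjusted p = 0.103 in limma), but was called in a fit with the replicate number as a block. Another IRT1 model differed by 1.52 and stayed out of the set only because its groups overlap: 12.13, 11.56 and 10.15 in dark-grown roots, against 10.26, 10.40 and 8.61 in light-grown roots. AT1G47400, a member with no symbol, measured 10.09, 9.85 and 9.61 in dark-grown roots, against 8.52, 8.54 and 7.71 in light-grown roots, and the next gene, AT1G47395, which is no member, rose by 1.39 (SE 0.27, adjusted p = 0.0435 in limma, 0.0387 to 0.146 with 1 array left out).

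Several members encode sugar or ion transporters. SWEET11 and SWEET12 are plasma membrane sugar exporters that act together in phloem loading. SWEET12 measured 13.81, 13.76 and 13.20 in dark-grown roots, against 11.06, 11.14 and 10.80 in light-grown roots (difference 2.59, 6.02-fold). SWEET11 measured 14.35, 14.25 and 13.78 in dark-grown roots, against 12.30, 12.31 and 11.76 in light-grown roots (difference 2.00, 4.01-fold). In both genes the groups stood at least 1 unit apart, and the third array was the lowest of each group. The paralogs may share probe signal. The inositol symporter gene INT2 measured 11.04, 11.12 and 10.60 in dark-grown roots, against 9.69, 9.16 and 8.63 in light-grown roots, a difference of 1.76.

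The excluded SWEET3 measured 9.78, 9.76 and 9.17 in dark-grown roots, against 7.74, 6.29 and 6.21 in light-grown roots (difference 2.82). The other 26 genes of a sugar transport list, which does not hold SWEET3, did not share this size of difference. Limma called 0 higher and 1 lower (list median 0.03), and 2 higher and 4 lower at an unadjusted p under 0.05. The hexose transporter gene MSS1, also STP13, fell by 0.94 (SE 0.07, adjusted p = 0.00206 in limma). SWEET4 spread widely, with 7.28, 8.99 and 8.72 in dark-grown roots, against 6.21, 7.16 and 7.31 in light-grown roots, and did not pass (difference 1.44, SE 0.53, adjusted p = 0.200 in limma).

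SKOR, the outward potassium channel of the stele that releases potassium to the xylem, measured 13.33, 13.18 and 12.86 in dark-grown roots, against 11.02, 10.89 and 10.66 in light-grown roots (difference 2.27, 4.81-fold). The potassium channel gene KCO2 was at 10.78, 10.89 and 10.67 in dark-grown roots, against 9.10, 9.69 and 8.95 in light-grown roots (difference 1.53). The SKOR groups were narrow and stood well apart, while KCO2 had a light SD of 0.39 and a separation of 0.98, below the median separation of 1.19 in the set. PUP16, of the purine permease family, had a mean of 11.68 ± 0.27 in dark-grown roots and 9.81 ± 0.11 in light-grown roots (SD, n = 3). The mitochondrial ABC transporter gene ABCB24 had 9.61 ± 0.36 in dark-grown roots and 8.03 ± 0.48 in light-grown roots. Among relatives by symbol, limma called 0 of 26 other ABCB genes (3 higher and 3 lower at an unadjusted p under 0.05), and PUP19 and PUP2 among 17 other PUP genes rose by 0.89 and 1.37, with calls lost without 6 and 5 of the 6 arrays.

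**Figure D2:**
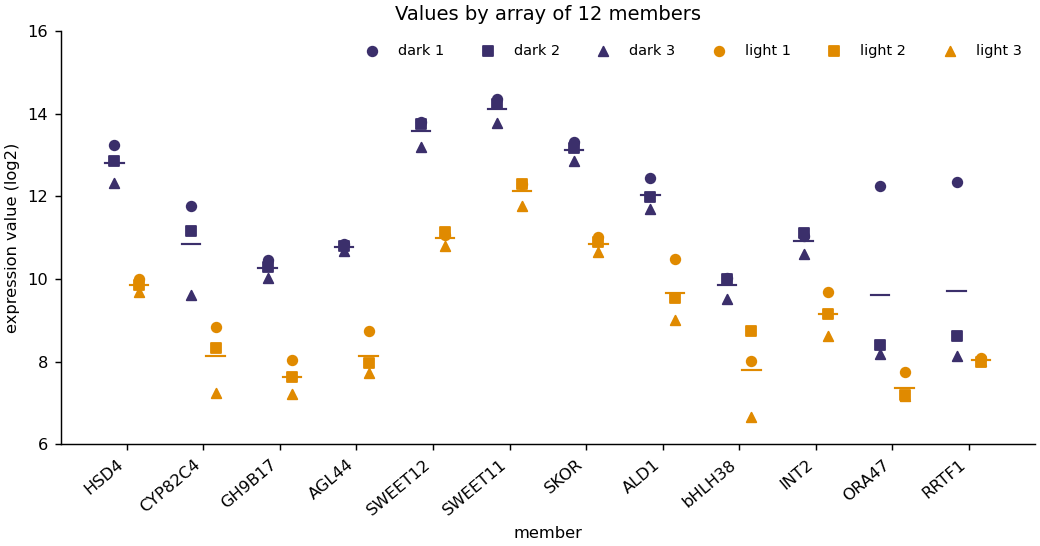
Log2 expression value of 12 members in each array, with dark-grown roots left (purple) and light-grown roots right (orange) and the symbols giving the replicate; short lines are group means of 3 arrays. The third replicates (triangles) are low in both groups for most of these members, and ORA47 and RRTF1 are high in the first dark array alone.

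Transcription factors in the set came from several families. AGL44, better known as ANR1, is a MADS-box factor that acts in the lateral root response to nitrate. It measured 10.84, 10.81 and 10.69 in dark-grown roots, against 8.75, 7.96 and 7.72 in light-grown roots (difference 2.64, 6.22-fold), with dark arrays within 0.15 of each other. The MADS-box gene AGL79 measured 9.80, 9.86 and 9.39 in dark-grown roots, against 8.38, 7.40 and 8.04 in light-grown roots (difference 1.74).

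WRKY58 measured 11.19, 11.28 and 10.80 in dark-grown roots, against 9.45, 9.47 and 8.74 in light-grown roots (difference 1.87). Among 66 other WRKY genes limma called 4 higher and 9 lower in dark-grown roots, so more relatives were called in the opposite direction. WRKY28 and WRKY71 fell by 2.66 (SE 0.20) and 2.50 (SE 0.10), and kept their calls without any 1 array. WRKY54 rose by 1.16 (SE 0.14, adjusted p = 0.0126 in limma), a call lost without 3 of the 6 arrays. ERF53, an AP2/ERF factor known from drought responses, measured 10.92, 10.80 and 11.28 in dark-grown roots, against 9.09, 9.70 and 9.16 in light-grown roots. It differs from most members in that the third dark array was the highest. The WIP zinc finger gene DOT5 measured 9.11, 9.17 and 8.96 in dark-grown roots, against 7.50, 6.87 and 7.87 in light-grown roots. The precursor of the microRNA miR171c, which targets GRAS transcription factor transcripts, measured 8.24, 9.34 and 8.78 in dark-grown roots, against 7.44, 7.50 and 6.53 in light-grown roots, and its groups were separated by 0.74.

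ORA47 and RRTF1 entered the set through 1 array. Both encode AP2/ERF factors known from jasmonate and wound responses. ORA47 measured 12.26, 8.40 and 8.18 in dark-grown roots, against 7.75, 7.20 and 7.17 in light-grown roots. RRTF1 measured 12.35, 8.61 and 8.14 in dark-grown roots, against 8.09, 8.0 and 8.01 in light-grown roots. Their dark SDs were 2.29 and 2.31, the widest in the set. Without the first dark array the difference of ORA47 was 0.92 in place of 2.24 and that of RRTF1 was 0.34 in place of 1.67, and neither met the rule. In no other member did leaving out 1 array move the difference by more than 1.5 times. Of all models, 3 stood 2 or more above every other array in the first dark array, and ORA47 and RRTF1 were 2 of them. Such models numbered 0 and 1 in the other dark arrays, and 2, 23 and 0 in the light arrays, so the second light array had the most. The other, AT1G19210, measured 11.08, 8.44 and 7.99 in dark-grown roots, against 8.32, 8.35 and 8.24 in light-grown roots.

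Few members were recognised by symbol or synonym as hormone or defence genes, and the roles of most of the 49 loci without a symbol were not examined. ALD1, an aminotransferase that acts in the synthesis of the immune signal pipecolic acid, measured 12.45, 11.99 and 11.70 in dark-grown roots, against 10.48, 9.53 and 9.0 in light-grown roots (difference 2.38, 5.19-fold). AT5G66260, named SAUR11 among its synonyms and so one of the small auxin upregulated RNAs, measured 9.09, 9.17 and 8.24 in dark-grown roots, against 6.26, 6.57 and 5.94 in light-grown roots (difference 2.58). AT1G79130, with the synonym SAUR40, differed by 1.58 at a light mean of 6.86. The light means of both SAUR genes lie under 7.

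The cytokinin-activating gene LOG2 (LONELY GUY 2) and the protein kinase gene SNRK2-8 were members through dim models. The LOG2 member measured 7.90, 8.53 and 7.71 in dark-grown roots, against 7.03, 6.73 and 5.43 in light-grown roots. A brighter LOG2 model measured 12.76, 12.86 and 12.79 in dark-grown roots, against 11.98, 12.07 and 11.20 in light-grown roots, a difference of 1.05, and another differed by 0.48 with overlapping groups. For SNRK2-8, the member differed by 1.64 and the other model by 0.49 with overlapping groups. These genes therefore do not show the same size of difference in all of their models. In contrast, all 3 models of the serine carboxypeptidase-like gene SCPL13 were members, at 2.27, 2.11 and 1.74, although models of one locus can share probes. Altogether 74 of the 79 loci had 1 model on the array.

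Other lists of hormone genes held no member of the set. Their counts stand beside 2.46% of all genes higher and 3.27% lower. In the abscisic acid list 2 of 26 genes were higher (7.69%) and 0 lower in limma (median 0.20), and 6 and 2 at an unadjusted p under 0.05. The epoxidase gene ABA1 rose by 0.53 and the catabolic gene CYP707A3 by 0.73, and both lost the call whichever array was left out. The excluded NCED3, which encodes the rate-limiting enzyme of abscisic acid synthesis, was at 13.82, 13.68 and 13.66 in dark-grown roots, against 12.19, 12.30 and 11.54 in light-grown roots. In the gibberellin and brassinosteroid list 1 of 34 was higher (2.94%) and 5 lower (median 0.07). At an unadjusted p under 0.05, 7 of this list were higher and 5 lower. Without any 1 array, 0 to 1 were called higher and 1 to 4 lower. The gibberellin synthesis gene GA3OX2 fell by 2.65 (SE 0.20, adjusted p = 0.00257 in limma) and kept its call without any 1 array. The brassinosteroid synthesis gene BR6OX1 rose by 0.81 (SE 0.14, adjusted p = 0.0305 in limma), a call lost without 5 of the 6 arrays. In the list of shade and phytochrome-interacting factor responses, 1 of 29 was higher (3.45%) and 1 lower in limma, and 5 and 2 at an unadjusted p under 0.05. Of the adjusted calls, 1 went each way. The higher was the wall enzyme gene XTH15, also XTR7 (0.47, SE 0.07, call lost whichever array was left out). The lower was HFR1 (-1.01, SE 0.10), an atypical bHLH factor of light signalling that kept its call. The excluded PIF4 differed by 1.64 and 1.81 in its 2 models.

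Other members encode cell wall or cell surface proteins. GH9B17, a glycosyl hydrolase of the endoglucanase family, measured 10.46, 10.30 and 10.03 in dark-grown roots, against 8.03, 7.62 and 7.22 in light-grown roots (difference 2.64, 6.23-fold). XTH2, a xyloglucan endotransglucosylase/hydrolase, measured 7.92, 8.42 and 8.13 in dark-grown roots, against 6.93, 6.51 and 6.49 in light-grown roots, one of the members nearest both limits of the rule. Of 29 other XTH genes limma called 1 higher and 6 lower in dark-grown roots, among them XTH32 (-2.24, SE 0.12) and XTH11 (-2.01, SE 0.15), whose calls held without any 1 array. Limma called 0 of 14 other GH9B genes (1 higher and 1 lower at an unadjusted p under 0.05).

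The lectin receptor kinase gene AT5G10530 (LecRK-IX.1) was among the most even members, with 11.97, 12.00 and 11.88 in dark-grown roots, against 9.58, 9.63 and 9.68 in light-grown roots (difference 2.32). A second lectin receptor kinase gene, AT5G59270 (LecRK-II.2), differed by 1.56. PERK2 carries the name of a receptor kinase family, but the gene table lists it as a transcribed pseudogene. It measured 10.40, 10.90 and 10.11 in dark-grown roots, against 9.21, 8.33 and 8.55 in light-grown roots, and PERK14 among 14 relatives rose by 0.85 (SE 0.08, adjusted p = 0.00436 in limma), a call held without any 1 array. The early nodulin-like gene ENODL21 had means of 9.98 ± 0.29 in dark-grown and 8.29 ± 0.46 in light-grown roots (SD, n = 3), and limma called 0 of 21 relatives (1 higher and 3 lower at an unadjusted p under 0.05). The glycine-rich wall protein gene GRP-3 lay on the limit, with one model in the set at 1.52 and others outside it, just under the limit and at 1.34.

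**Figure D3:**
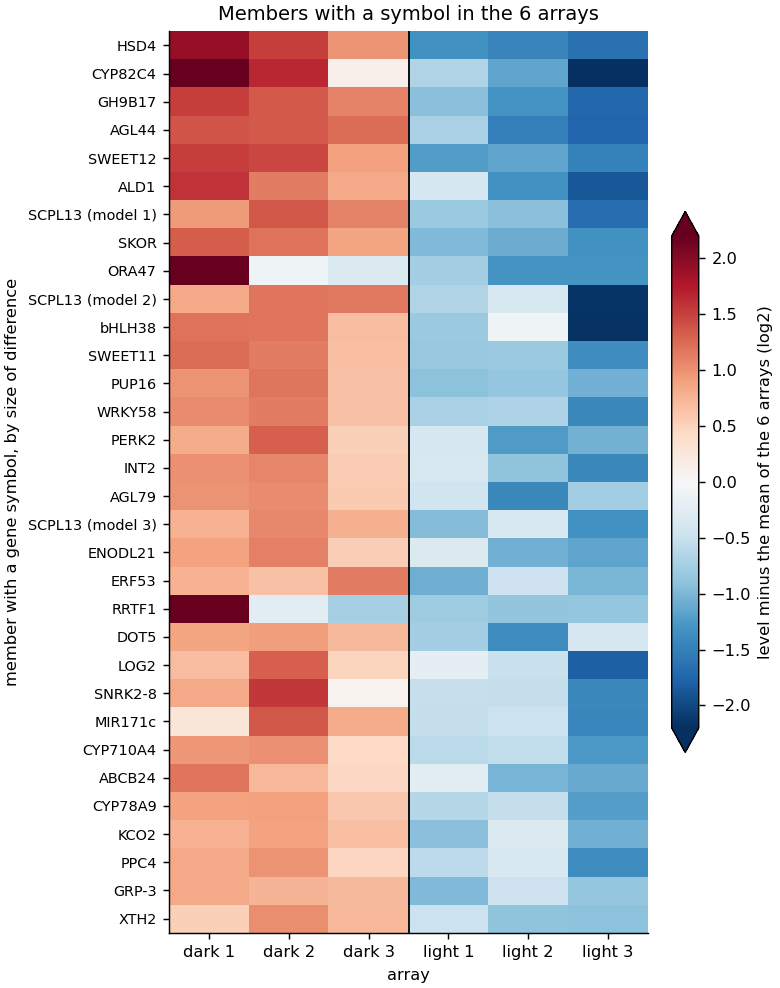
Level of each member with a gene symbol in the 6 arrays, as the log2 value minus the mean of the 6 arrays, with dark-grown roots left of the line and light-grown roots right of it; rows run from the largest difference (HSD4, 2.96) to the smallest (XTH2, 1.51) and colours saturate at the ends of the scale. ORA47 and RRTF1 are high in the first dark array alone, and light replicate 3 has the lowest value in many rows, among them CYP82C4, bHLH38 and LOG2.

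Further members with a symbol encode enzymes. CYP710A4 belongs to the sterol desaturase P450s and measured 13.31, 13.36 and 12.80 in dark-grown roots, against 11.76, 11.82 and 11.10 in light-grown roots (difference 1.60). Its 3 CYP710A relatives had a median difference of 0.65, and limma called 0 of them (1 higher at an unadjusted p under 0.05). CYP78A9, a P450 known from organ growth, differed by 1.58, and its relative CYP78A6 rose by 1.26 (SE 0.17, adjusted p = 0.0166 in limma), a call lost without 4 of the 6 arrays. PPC4, a phosphoenolpyruvate carboxylase of the bacterial type, differed by 1.53 at means of 8.64 in dark-grown and 7.10 in light-grown roots.

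The 49 loci without a symbol had differences from 1.5 to 3.34 (median 1.76), much like the models with one (1.51 to 2.96, median 1.75). AT2G44220 measured 9.16, 8.73 and 7.83 in dark-grown roots, against 5.90, 5.85 and 5.63 in light-grown roots, the lowest light mean of the set. AT1G15540 differed by 2.73, AT1G68040 by 2.72, AT1G61750 by 2.64, AT1G52800 by 2.44 and AT2G14247 by 2.40. The tightest of these was AT1G61750, at 12.91, 12.74 and 12.73 in dark-grown roots, against 10.12, 10.39 and 9.95 in light-grown roots. AT1G55230 had the smallest light spread of all members, with 11.97, 12.08 and 11.83 in dark-grown roots, against 10.09, 10.02 and 10.05 in light-grown roots. Uneven values were also seen, as in AT3G03670, which measured 9.22, 8.29 and 8.23 in dark-grown roots, against 6.76, 8.07 and 6.14 in light-grown roots. By type, 74 loci are protein coding in the gene table, 3 are pseudogenes, 1 is a transcribed pseudogene and 1 encodes a microRNA.

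At the limits of the rule, AT1G45015 was the last model inside, at a difference of 1.5 with 14.20, 14.25 and 14.01 in dark-grown roots, against 12.77, 12.83 and 12.36 in light-grown roots. AT5G26070 at 1.5, XTH2 at 1.51, GRP-3 at 1.52 and AT1G33813 at 1.53 were the next inside. Just outside were a GRP-3 model at 1.4967, AT2G26692 and the branched-chain aminotransferase gene BCAT-2 at 1.49, AT2G22750 in its second model at 1.49 and AT2G19410 at 1.48. On the dark level, SNRK2-8 (8.03) and LOG2 (8.05) were just inside and AT5G54630 (7.93, difference 1.79) was the single model outside.

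The members shared a replicate pattern. The rule did not use the replicate numbers, but it used the values of every array. A low light array widens the difference, so the shares below are not independent of the rule. The third dark array was the lowest of the dark arrays in 65 of 81 models (80.2%), and the third light array was the lowest of the light arrays in 66 (81.5%). Both held in 53 models (65.4%). Among 17666 other models with dark means in the same range, the shares were 36.9%, 39.5% and 22.0%. In the 245 models that met the rest of the rule with a difference of 1 to 1.5 they were 60.4%, 73.5% and 47.3%. In 389 models that were lower in dark-grown roots by the mirrored rule, they were 20.8%, 33.9% and 8.74%. These sets were compared after the values were seen, members are not independent of each other, and what the arrays numbered 3 share was not tested. The median SD within a group was 0.26 for dark and 0.40 for light arrays in the set, against 0.13 and 0.15 in the other models of the same dark range.

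**Figure D4:**
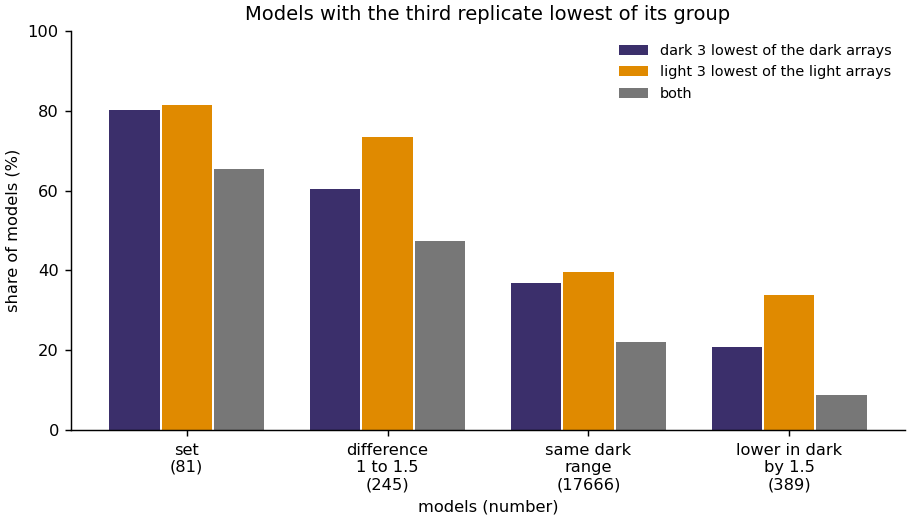
Share of models, in percent, in which the third dark array was the lowest of the dark arrays (purple), the third light array the lowest of the light arrays (orange), or both (grey), for the set, for models with a difference of 1 to 1.5, for other models of the same dark range and for models lower in dark-grown roots; numbers of models are under the bars. In the set the shares are 80.2%, 81.5% and 65.4%.

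Membership depended on the arrays in the same sense. Without the third light array 60 models met the rule, 53 of them members of the set, and without the first light array 126 did, 77 of them members. Without 1 dark array, 69 to 114 models met it. In all 6 such settings 45 models of 43 loci stayed in the set. bHLH38, INT2, CYP710A4, CYP78A9, LOG2, PPC4 and SNRK2-8 were among the 28 models that dropped out without the third light array.

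The members were spread over the genome, with 21 loci on chromosome 1, 14 on chromosome 2, 22 on chromosome 3, 10 on chromosome 4 and 12 on chromosome 5. Apart from bHLH38 and bHLH39, close pairs were GRP-3 and AT2G05540, and AT3G45093 and AT3G45095, each with 1 annotated gene between, and AGL44 and AT2G14247 with 4 between. Of 131 measured genes that directly adjoin a member, limma called 8 higher (6.11%) and 2 lower, with a median difference of 0.17. Over all genes 2.46% were higher. AT1G52790, beside AT1G52800, rose by 1.47 (SE 0.24, adjusted p = 0.0274 in limma). AT1G33817, beside AT1G33813, rose by 1.41 (SE 0.20, adjusted p = 0.0184 in limma), and AT5G26080, beside AT5G26070, by 1.22 (SE 0.22, adjusted p = 0.0348 in limma). AT3G61870, beside CYP78A9, fell by 1.63 (SE 0.08, adjusted p = 0.000961 in limma) and kept its call without any 1 array. Without any 1 array, 0 to 4 neighbours were called higher and 1 lower, so the count of 8 rests on all 6 arrays. Whether neighbours read a member's transcript was not tested.

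Genes that share a symbol prefix with a member were called in both directions, and which direction had more calls depended on the threshold and setting. Of 405 measured relatives, leaving out the genes with the prefix MIR, which are a class and not a family, limma called 15 higher (3.70%) and 26 lower, with a median of 0.03, where 2.46% of all genes were higher and 3.27% lower. Of these 405, 65 were higher and 59 lower at an unadjusted p under 0.05. With the 145 microRNA genes the adjusted counts were 20 and 28 of 550, and the unadjusted ones 85 and 65. Leaving out 1 array gave 6 to 10 relatives higher and 10 to 20 lower. ORA59, an AP2/ERF factor of the ethylene and jasmonate response that shares the prefix ORA, fell by 1.13 (SE 0.15, adjusted p = 0.0161 in limma, call lost without 4 of the 6 arrays). BHLH92 fell by 3.32 (SE 0.30, adjusted p = 0.00461 in limma) and kept its call.

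In the remaining lists, which were matched by symbol and so matched no member, calls went both ways except in the suberin list. In the dark-induced and sugar starvation list 3 of 21 genes were higher and 4 lower (median 0.08). SEN1, also DIN1, rose by 0.85 (SE 0.10) and BCAT-2 by 1.49 (SE 0.16). Both calls held without any 1 array but were lost in a fit with the replicate number as a block. DIN11 fell by 2.50 (SE 0.20) and PHI-1, also EXL1, by 2.22. In the phosphate starvation list 2 of 27 were higher and 2 lower. The phosphate transporter gene PHT1;8 rose by 1.38 (SE 0.20, call lost without 5 of the 6 arrays) and the ribonuclease gene RNS1 fell by 1.46 (SE 0.09). In the root triterpene list 2 of 14 were higher and 1 lower, with the P450 gene CYP705A1 at 0.99 (SE 0.14), a call lost without 4 of the 6 arrays. Of 8 SABATH methyltransferase genes, the indole-3-acetate methyltransferase gene IAMT1 rose by 1.19 (SE 0.14, call lost without 1 of the 6 arrays) and FAMT fell by 1.98 (SE 0.30, call lost without 4 of them). Of 17 suberin genes, only the regulator gene MYB92 passed, with 0.58 (SE 0.10, call lost whichever array was left out). Over the 11 lists together 16 of 240 genes outside the set were higher (6.67%) and 17 lower, where 2.46% of all genes were higher and 3.27% lower. The lists were chosen with earlier results of these data known, so nothing is concluded from these counts.

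**Figure D5:**
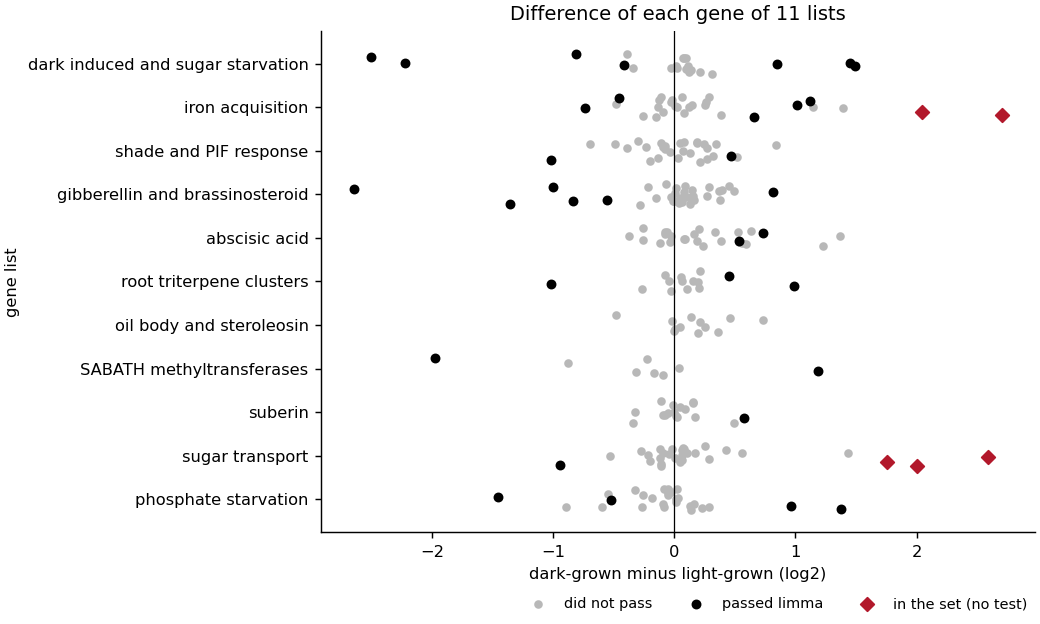
Difference between dark-grown and light-grown roots (horizontal axis, log2, positive where higher in dark-grown roots) of each measured gene of 11 lists; black points passed limma at an adjusted p under 0.05, grey points did not, and red diamonds are members of the set, shown without a test. Members stand at the right end of the iron (CYP82C4, bHLH38) and sugar transport (SWEET12, SWEET11, INT2) lists, and the other genes of these lists lie at or below 1.44.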

How the data were processed

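One table of log2 expression values, 1 per transcript model and array, was analysed. The authors' deposited log2 values were equal within 0.01 when sorted within each array, so they were quantile normalized before deposit. Per the submitters' processing notes limma was used, with no version given. For background correction, probe summary and annotation release, the steps were not stated. Arrays have no read depth, and their number, 3 per group, limits the precision.

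The values were used as deposited. Dark minus light was fitted over all models by lmFit and eBayes of limma 3.58.1 (R 4.3.3), two-sided, without covariates, with Benjamini-Hochberg adjustment and a threshold of 0.05, after a test on simulated data. SE is limma's moderated one. Symbols and gene order came from the TAIR10.1 RefSeq table, which holds 31993 of the 32627 loci. No coordinates or sequences are given, and promoter motifs were not analysed here. Relatives share a symbol up to its final number. Gene lists (323 entries with the markers, 287 measured) are matched by symbol. By rule, members could all be named, and other genes where limma called a neighbour or relative, or among the 4 lowest p of a list. FER4, IRT1, SWEET4 and the genes high in the first dark array were named after their values were seen.

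The members and lists were chosen with earlier results of these data known. Alternatives were leaving out each array, a replicate block, normalizing or centring again, a filter at the 25th percentile of signal, another variance prior, and other limits of the rule. Figures used Python 3.11.15 and matplotlib 3.10.9.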

Additional observations from a re-analysis of the deposited data

How the results depend on the processing

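Without the first dark array the difference was 0.92 for ORA47 and 0.34 for RRTF1. Membership was the same 81 models after quantile normalizing again or centring on array medians. It was 60 to 126 models without any 1 array, 326 with a minimum difference of 1 and 28 with a minimum of 2. Models called higher and lower in dark-grown roots numbered 158 to 473 and 607 to 905 without any 1 array, and 1879 and 1852 when the variance prior was trended and robust. Leaving out the dimmest models, up to the 25th percentile, gave 1627 higher. Neighbours called higher and lower numbered 0 to 4 and 1 without any 1 array, and 16 and 4 with that prior. Relatives numbered 6 to 10 and 10 to 20 without any 1 array, 42 and 40 with the prior, and 36 and 37 with the signal filter. Genes of the 11 lists numbered 4 to 10 and 7 to 10 without any 1 array, and 25 and 23 with the prior. Leaving out an array leaves fewer samples, and the counts also differed with which array was left out. The cause of these and the other shifts was not tested.

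Same-numbered arrays correlated, as deviations from their group means, at 0.01, 0.06 and 0.41, so the numbers were not used as pairs. With a replicate block 290 models were higher and 668 lower, 5 neighbours higher and 1 lower, 5 relatives higher and 12 lower, and 5 list genes higher and 8 lower. The block ended the calls of SEN1 and BCAT-2, with 0 of the dark-induced list higher, and gave IRT1 a call. The promoter window alternative was not run.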

Other observations

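Besides ORA47, RRTF1 and AT1G19210, other models stood highest in the first dark array, chosen here after their values were seen. CAF1a, a deadenylase gene, measured 13.04, 11.13 and 10.27 in dark-grown roots, against 11.43, 11.16 and 11.06 in light-grown roots. In JAZ10, a jasmonate repressor gene, the other two dark arrays were the lowest of all: a model of it measured 10.63, 7.39 and 7.27 in dark-grown roots, against 9.04, 8.90 and 9.23 in light-grown roots. ERF13 measured 10.77, 7.83 and 8.11 in dark-grown roots, against 9.31, 9.52 and 9.28 in light-grown roots. In all, 34 models were 1 or more above every other array in the first dark array, against 68 and 9 in the other dark arrays and 90, 279 and 201 in the light arrays.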
